A study of Mus musculus with 7 samples.

Results

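The Hox cluster genes are the homeobox genes named Hoxa, Hoxb, Hoxc or Hoxd followed by a number, and they were chosen by that name alone. The rule found 39 genes, of which 38 were among the 38924 genes in the count files and Hoxd4 was not analysed here. Of these 38, 25 had enough reads to be tested between genotypes, among 16226 genes tested in all. The samples were mouse fetal liver at 12.5 days post coitum, 3 labelled Pcbp2 knockout (KO replicates 3, 4 and 5) and 4 labelled wild type (WT replicates 1 to 4). Messenger RNA of each was sequenced and reads were counted per gene. The labels give no knockout allele, strain, sex, litter or batch, and do not say whether a sample was 1 liver or pooled livers, so p-values measure the spread between these samples.

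Hox genes encode homeodomain transcription factors, and each cluster arose as a copy of the same ancestral row of genes. Genes with the same number in different clusters are paralogues, and low numbers sit at the 3′ end of a cluster, where expression starts earlier and reaches further towards the head. Genes with high numbers are used in the tail end of the trunk, the distal limb and the genital region. In blood formation, Hox proteins act with the TALE homeodomain cofactors Meis and Pbx, and several are known from stem and progenitor cells. Hox transcripts also occur in the mesenchyme that surrounds and enters the liver bud. In whole tissue, a change in the number of cells of a type and a change in RNA per cell cannot be told apart.

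Reads assigned to genes numbered 31898339 to 42378821 in KO and 32240949 to 44544889 in WT, and the 38 Hox genes took between 4896 and 11574 of them. Levels are given in CPM, counts scaled to library size with TMM factors, which sets each gene against the typical gene of its library; a floor of 3 reads, the limit set by a count of 0, was 0.0662 to 0.102 CPM. Pcbp2, the RNA-binding protein deleted in the KO, had 2.24, 1.39 and 2.22 CPM in KO livers, against 165, 329, 347 and 338 CPM in WT livers. WT replicate 1 therefore stood apart with the lowest Pcbp2 level of its group. Defining markers of fetal liver were abundant in every library: the 8 hepatoblast markers summed to 7134 to 9087 CPM in KO and 5723 to 11950 CPM in WT. The 8 erythroid markers summed to 11070 to 14530 CPM in KO and 44450 to 74110 CPM in WT, and 7 of them fell (edgeR quasi-likelihood test, Benjamini-Hochberg adjusted p under 0.05). By the same test 3.43% of all tested genes fell.

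The 4 clusters lie on 4 chromosomes of build mm10, and coordinates here are those of GENCODE M21 on that build. The Hoxa cluster is on chromosome 6 and has 11 members, of which 9 were tested. The Hoxb cluster is on chromosome 11 from 96194316 to 96368256, with 10 members and 9 tested. The Hoxc cluster is on chromosome 15 from 102921103 to 103036852, with 9 members and 4 tested. The Hoxd cluster is on chromosome 2 from 74668310 to 74765142, and 3 of its 8 members in the files were tested. The 13 members that were not tested were Hoxa11, Hoxa13, Hoxb13, Hoxc9 to Hoxc13, Hoxd1 and Hoxd10 to Hoxd13. Hoxc11 and Hoxc12 had no read in any library. The tested genes therefore reached to paralogue group 10 in Hoxa, 9 in Hoxb and Hoxd and 8 in Hoxc.

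The clusters also hold microRNA genes, whose short products pair with messenger RNAs through bases 2 to 8, the seed, and several Hox transcripts are known targets of the miR-196 family. Their mature sequences are shown because they fall into only a few seed families, with the seed in capitals; they were taken from RefSeq, build GRCm38.p6.
miR-10a-5p: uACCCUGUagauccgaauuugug
miR-10b-5p: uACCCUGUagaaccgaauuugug
miR-196a-5p: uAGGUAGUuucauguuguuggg
miR-196b-5p: uAGGUAGUuuccuguuguuggg
miR-615-3p: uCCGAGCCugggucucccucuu
Mir10a lies between Hoxb5 and Hoxb4, and Mir10b within the annotated spans of both Hoxd3 and Hoxd4. Mir196a-1 lies between Hoxb13 and Hoxb9, Mir196a-2 between Hoxc10 and Hoxc9, and Mir196b within the span of Hoxa9, while Mir615 lies within that of Hoxc5. These messenger RNA libraries do not measure mature microRNAs, and no microRNA gene in the clusters had more than 2 reads in a library.

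The letters ACTACCT, the complement of the miR-196 seed, were searched on the transcript strand of the longest annotated 3′ UTR of each gene. They occurred in 9 of 38 Hox genes (23.7%), against 1289 of 21112 genes with a UTR (6.11%). They included Hoxa4, Hoxa5, Hoxa7, Hoxa9, Hoxb1, Hoxb6, Hoxb7 and Hoxc8, and Hoxa7 had 4 matches and Hoxc8 had 2. The complement of the miR-10 seed, ACAGGGT, occurred in 4 of 38 (10.5%), against 12.4% of all genes, and they included Hoxa3, Hoxb3 and Hoxd1. A match is a description of letters and not a measured site. Matches of miR-196 in 3 clusters are shown with the matched letters in capitals.
Hoxa7, chr6:52215400-52215429, minus strand: tgtgcgcaggcacagccaaaatACTACCTa
Hoxb7, chr11:96289776-96289805, plus strand: tcttaacactgtaaaaaaatatACTACCTa
Hoxc8, chr15:102992968-102992997, plus strand: tagaatgacactcacaactctaACTACCTg

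Promoters, the 250 bases before and 50 bases after the transcript start in RefSeq on GRCm38.p6, are shown for the Hox gene with the highest level, the one with the smallest p and one at the unmeasured end of a cluster. Capitals mark the CCAAT box, the GC box GGGCGG and the TATA box TATAAA on either strand.
Hoxa5, chr6:52204538-52204837, minus strand: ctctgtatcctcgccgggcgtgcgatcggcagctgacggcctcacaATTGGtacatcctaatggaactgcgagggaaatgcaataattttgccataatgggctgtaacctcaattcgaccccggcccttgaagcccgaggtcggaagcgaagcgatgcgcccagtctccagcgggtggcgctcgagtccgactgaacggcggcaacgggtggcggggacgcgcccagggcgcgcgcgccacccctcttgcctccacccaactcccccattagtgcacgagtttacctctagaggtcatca
Hoxc4, chr15:103034145-103034444, plus strand: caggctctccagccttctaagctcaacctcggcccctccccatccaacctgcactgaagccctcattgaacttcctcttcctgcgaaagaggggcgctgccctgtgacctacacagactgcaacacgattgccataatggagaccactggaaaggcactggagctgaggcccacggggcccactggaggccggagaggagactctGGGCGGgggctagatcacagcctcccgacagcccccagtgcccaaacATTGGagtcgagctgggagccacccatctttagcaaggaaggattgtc
Hoxa13, chr6:52260831-52261130, minus strand: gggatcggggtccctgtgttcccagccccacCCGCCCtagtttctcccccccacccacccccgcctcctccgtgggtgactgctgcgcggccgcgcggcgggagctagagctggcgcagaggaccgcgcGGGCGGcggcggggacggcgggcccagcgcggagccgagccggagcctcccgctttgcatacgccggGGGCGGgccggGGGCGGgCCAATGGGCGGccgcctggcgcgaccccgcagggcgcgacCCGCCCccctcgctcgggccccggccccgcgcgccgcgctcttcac
The Hoxa5, Hoxc4 and Hoxa13 promoters held 29, 9 and 45 CpG dinucleotides, and GGGCGG or its complement stood at 0, 1 and 6 places. The 24 Hox promoters in the table, of 22 genes, had a median of 14.5 CpG, against 7 over 32851 promoters of all genes. The median was 13 (range 4 to 29) for 15 promoters of 14 tested Hox genes. It was 23.5 (range 4 to 45) for 8 promoters of 7 Hox genes with too few reads, so the ranges overlapped. CCAAT stood in 62.5% of the Hox promoters and 37.4% of all promoters, GGGCGG in 41.7% and 35.7%, and TATAAA in 16.7% and 13.6%, each on either strand.

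Per kilobase of exon, the level of Hox transcripts was highest in the middle-to-low numbers and fell steeply towards the high numbers. Summed over its members, paralogue group 5 (Hoxa5, Hoxb5 and Hoxc5) had 23.0, 29.0 and 34.9 CPM per kb in KO livers, against 16.97, 31.2, 20.3 and 18.8 CPM per kb in WT livers. Group 4, which lacks Hoxd4 here, had 24.4 ± 5.54 CPM per kb in KO (SD, n = 3) and 18.8 ± 2.51 in WT (SD, n = 4). Its range over libraries overlapped that of group 5 in either genotype. Within libraries it was the lower in 6 of the 7, a difference that was not tested. Groups 2, 3 and 6 had 11.4, 6.69 and 8.67 CPM per kb in KO and 9.93, 5.37 and 5.87 CPM per kb in WT. Group 9 had 1.28 ± 0.539 CPM per kb in KO and 1.28 ± 0.997 in WT. Group 10 had 0.141 CPM per kb in KO and 0.0474 in WT, below every group from 1 to 9 in both genotypes.

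**Figure D1:**
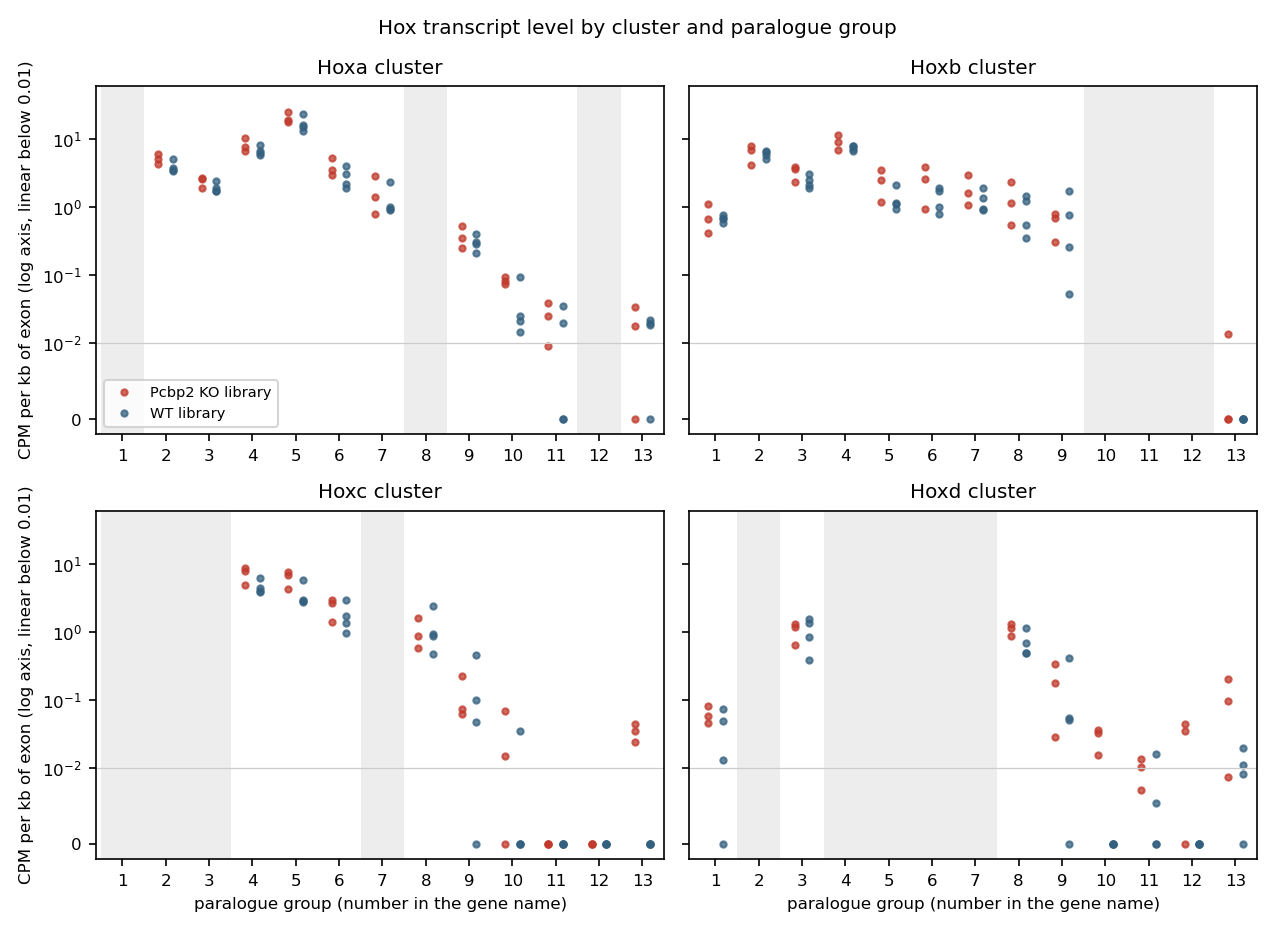
Level of Hox genes in each library by cluster (panels) and paralogue group (x axis), in CPM per kb of exon on a log axis that is linear below 0.01; red points are Pcbp2 KO libraries, blue points WT libraries, and grey bands mark numbers with no gene shown. Among the genes shown, levels peaked at Hoxa5, Hoxb4, Hoxc4 and at Hoxd3 and Hoxd8 within their clusters. Hoxd4 was not analysed. Levels were under 0.1 CPM per kb in every library for Hoxa10, Hoxa11 and Hoxa13.

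Hoxa5, which patterns the neck vertebrae and the lung, was the most abundant Hox transcript, with 17.5, 19.0 and 24.6 CPM per kb in KO livers and 13.2, 23.3, 16.2 and 14.8 CPM per kb in WT livers. KO replicate 5 and WT replicate 2 were the high samples, and the groups overlapped. Its level was above that of the next gene, Hoxb4, a gene known for its use in expanding blood stem cells, in every library: Hoxb4 had 7.01, 9.12 and 11.3 CPM per kb in KO and 7.16, 8.03, 6.68 and 7.90 in WT. Hoxa4 followed with 6.62, 7.53 and 10.3 CPM per kb in KO and 6.16, 8.16, 5.84 and 6.75 in WT. Its range over libraries overlapped that of Hoxb4. Within libraries Hoxa4 was the lower in all but WT replicate 2, a difference that was not tested. Hoxb2, a hindbrain patterning gene, had 4.21, 7.79 and 6.96 CPM per kb in KO and 6.41, 5.84, 5.04 and 6.64 in WT. KO replicate 3 was the lowest of the 7 for Hoxb2 and the other KO samples were the highest.

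Among the Hoxd genes analysed, which leave out Hoxd4, the highest members were lower per kilobase than those of the other clusters. They were Hoxd3, which shapes the first neck vertebrae, and Hoxd8, a gene of the trunk. Hoxd3 had 0.649, 1.18 and 1.31 CPM per kb in KO and 1.33, 1.57, 0.392 and 0.840 in WT. Hoxd8 had 0.882, 1.16 and 1.29 CPM per kb in KO and 0.679, 1.14, 0.499 and 0.486 in WT. The KO samples of Hoxd3 lay within the WT range, and those of Hoxd8 lay in its upper part or just above it.

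No Hox gene passed the test between Pcbp2 KO and WT livers. edgeR called 0 of 25 at an adjusted p under 0.05, where it called 5.02% of all tested genes, 1.59% higher and 3.43% lower; limma-voom also called 0, where it called 1.45% of all tested genes higher and 3.2% lower. DESeq2 called 1 of the 24 to which it gave an adjusted p, Hoxc5, as higher, where it called 3.88% of all genes higher and 6.65% lower. An unadjusted p under 0.05 was found for 3 of 25, Hoxb5, Hoxc4 and Hoxc5, against 21.8% of all tested genes. KO and WT samples overlapped for each of the 25, while 9.83% of all tested genes had every KO sample above every WT sample and 10.8% every KO sample below. The fitted difference was above 0 for 22 of 25 Hox genes, as it was for 52.1% of all tested genes. The median log2 difference was 0.38 over the tested Hox genes and 0.01 over all tested genes, and the median standard error was 0.32 and 0.15.

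**Figure D2:**
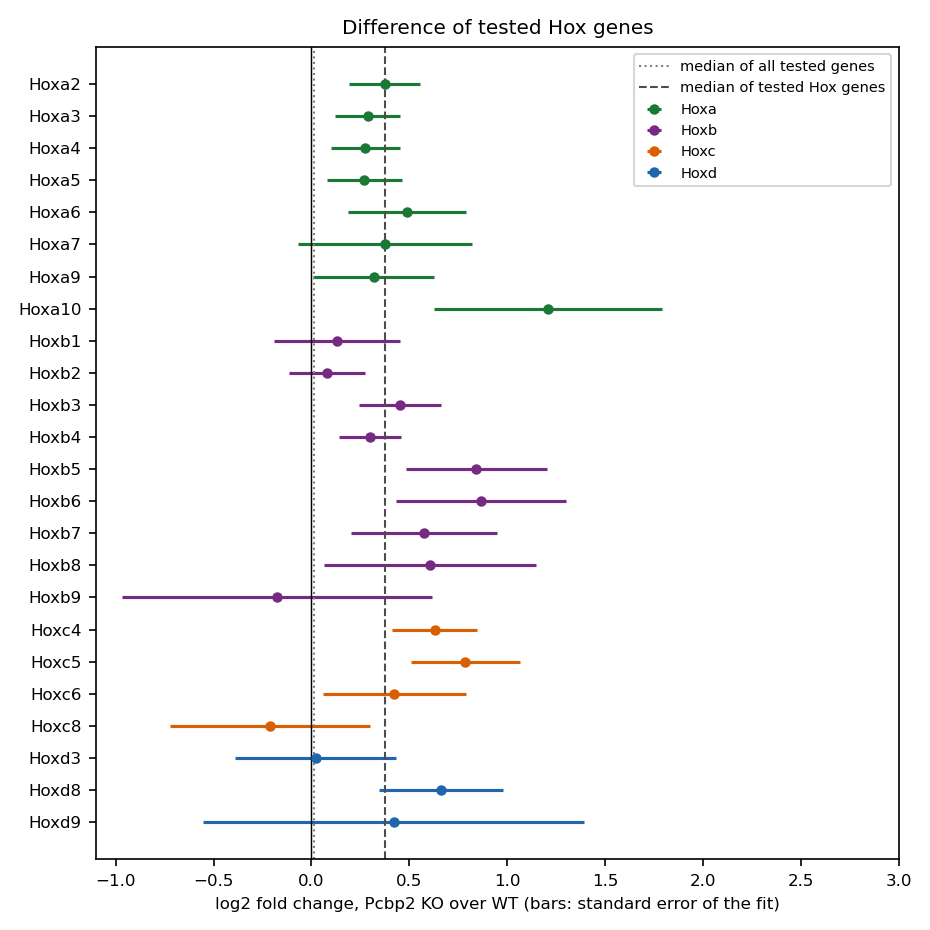
The log2 fold change of tested Hox genes (Pcbp2 KO over WT; points, coloured by cluster) with the standard error of the fit (bars). The dashed line at 0.38 is the median of the tested Hox genes and the dotted line at 0.01 that of all tested genes; the points of Hoxb9 and Hoxc8 lie below 0.

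These differences share their samples, and KO replicates 4 and 5 and WT replicate 2 were high for many of the genes, so the 22 positive values are not 22 separate observations. Positive values numbered 17 of 25 without KO replicate 4 and 24 of 25 without KO replicate 3. The median was 0.23 without KO replicate 4, 0.55 without WT replicate 2 and 0.56 without KO replicate 3. With total-count scaling, which moved the median of all genes to 0.14, it was 0.49 and 22 of 25 stayed above 0.

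In the Hoxc cluster 3 of 4 tested genes were above 0, with a median of 0.53. Hoxc4, which acts in vertebral patterning and is also transcribed in blood cells, had the smallest p of the 25. It had 12.6, 22.1 and 20.2 CPM in KO livers and 9.85, 15.9, 11.4 and 10.2 CPM in WT livers. KO replicates 4 and 5 were above every WT sample, and KO replicate 3 was below WT replicate 2 only. Its log2 difference was 0.63 ± 0.22 (SE; edgeR adjusted p = 0.125). The edgeR adjusted p was 0.0445 without WT replicate 2, 0.0395 without KO replicate 3, and 0.227 to 0.345 with any other library left out.

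Hoxc5, its neighbour, had 13.4, 23.3 and 20.99 CPM in KO livers and 8.63, 18.0, 9.17 and 8.76 CPM in WT livers. WT replicate 2 was far above the other WT samples and lay within the KO range. The log2 difference was 0.79 ± 0.28 (SE; edgeR adjusted p = 0.133; DESeq2 adjusted p = 0.0450), and without WT replicate 2 it was 1.11 (edgeR adjusted p = 0.0120). With any other library left out the edgeR adjusted p of Hoxc5 was 0.0772 to 0.334, and the log2 difference was lowest, at 0.62, without KO replicate 4. The authors' deposited table lists 23 Hox genes, 20 of them with a positive log2 fold change, and 2 are under an adjusted p of 0.05, both higher, against 10.9% of its 15548 genes in either direction and 4.06% higher. These 2 are Hoxc5 (log2 0.75, adjusted p = 0.0395) and Hoxc4 (log2 0.60, adjusted p = 0.0481) in the authors' deposited table. In M21 5.4% of the exon bases of Hoxc5 are shared with Hoxc10 on the same strand, because an annotated Hoxc5 transcript starts near Hoxc10.

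Hoxc6 and Hoxc8, which pattern the thoracic trunk, gave log2 differences of 0.42 ± 0.36 and -0.21 ± 0.51 (edgeR adjusted p = 0.541 and 0.846). Hoxc8 had 1.63, 2.49 and 4.56 CPM in KO and 2.68, 6.88, 1.34 and 2.48 CPM in WT, the highest value being WT replicate 2. Its sign depended on that sample: the log2 difference was 0.41 without WT replicate 2, and it was 0.07 without KO replicate 3. Summed over the cluster, Hoxc transcripts had 31.2, 55.3 and 52.8 CPM in KO and 26.4, 48.0, 24.2 and 24.8 CPM in WT.

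**Figure D3:**
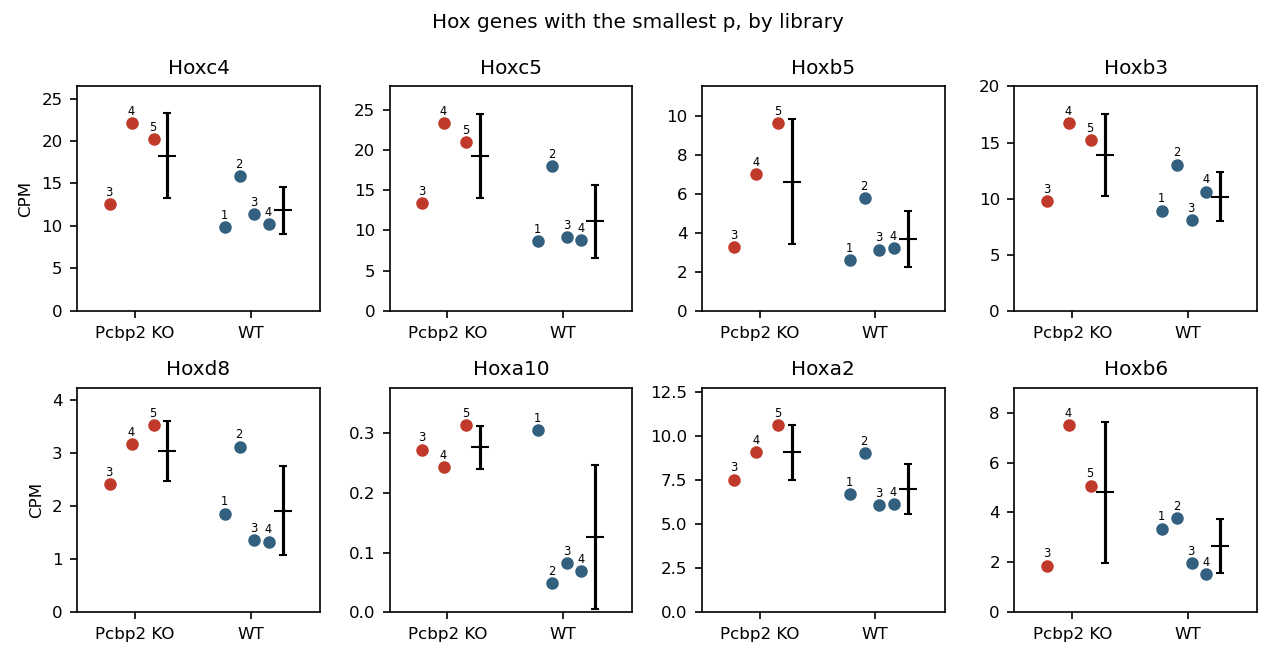
Level in CPM of the 8 Hox genes with the smallest p in each library; numbers beside the points are replicate numbers, and the bars beside each group show its mean and SD (n = 3 Pcbp2 KO, n = 4 WT). WT replicate 2 lies within the KO range for 7 of the 8, all but Hoxa10, and KO replicate 3 is the lowest KO point for 7 of the 8.

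In the Hoxb cluster 8 of 9 tested genes were above 0, with a median of 0.45. Hoxb5, a gene of lateral mesoderm and gut nerve precursors, had 3.27, 7.04 and 9.64 CPM in KO livers and 2.61, 5.81, 3.15 and 3.24 CPM in WT livers. KO replicate 3 lay with the low WT samples, and WT replicate 2 was between KO replicates 3 and 4. Its log2 difference was 0.84 ± 0.36 (SE; edgeR adjusted p = 0.208), and 0.48 without KO replicate 5 (edgeR adjusted p = 0.605). Hoxb3, a hindbrain gene, had 9.80, 16.7 and 15.2 CPM in KO and 8.94, 13.03, 8.10 and 10.6 CPM in WT. The log2 difference was 0.45 ± 0.21 (SE; edgeR adjusted p = 0.245), and 52.9% of the Hoxb3 exon bases are overlapped by the antisense gene Hoxb3os.

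Hoxb6, Hoxb7 and Hoxb8, adjacent genes of the trunk, gave log2 differences of 0.87 ± 0.44, 0.58 ± 0.37 and 0.61 ± 0.54 (edgeR adjusted p = 0.278, 0.405 and 0.561). In all of them KO replicate 4 was the highest of the 7 samples, at 7.50, 4.63 and 6.24 CPM. Without it the log2 differences of Hoxb6, Hoxb7 and Hoxb8 were 0.39, 0.07 and -0.09. Hoxb9 gave -0.18 ± 0.79 (edgeR adjusted p = 0.924), with 0.786, 2.07 and 1.80 CPM in KO and 4.37, 2.001, 0.137 and 0.667 CPM in WT. The WT samples of Hoxb9 alone spanned more than the KO samples did, and its log2 difference was 0.73 without WT replicate 1, the highest of them. Hoxb1, Hoxb2 and Hoxb4 gave 0.13, 0.08 and 0.30 on the log2 scale, none past the threshold. Without KO replicate 4 Hoxb1 and Hoxb2 gave -0.31 and -0.10.

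In the Hoxa cluster the median log2 difference of the 9 tested genes was 0.32. Hoxa10, a gene of the hind trunk and uterus that is also used in myeloid progenitors, had the largest fitted difference but few reads, 48 over the 7 libraries. It had 0.272, 0.243 and 0.314 CPM in KO and 0.305, 0.0488, 0.0821 and 0.0690 CPM in WT. WT replicate 1 stood with the KO samples and the other WT samples were below them. The log2 difference was 1.21 ± 0.58 (SE; edgeR adjusted p = 0.259). WT replicates 2, 3 and 4 had 2, 3 and 3 reads, at or below the floor of 3 reads, against 9, 11 and 11 in KO. Without WT replicate 1, Hoxa10 had enough reads to be tested only through the KO samples. Its call as higher in that fit is therefore not read as a result, and no fold is given for it. The edgeR adjusted p was 0.351 to 0.505 with any other library left out.

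Hoxa2, which patterns the neural crest of the second branchial arch, had 7.53, 9.09 and 10.6 CPM in KO and 6.70, 9.05, 6.10 and 6.16 CPM in WT. Its log2 difference was 0.37 ± 0.18 (SE; edgeR adjusted p = 0.265), and WT replicate 2 alone of the WT samples was inside the KO range. Hoxa4 and Hoxa5, the most abundant members of the cluster per kilobase, gave 0.28 ± 0.18 and 0.27 ± 0.19 on the log2 scale (edgeR adjusted p = 0.399 and 0.453), and 0.07 and 0.11 without KO replicate 5. Hoxa3, Hoxa6 and Hoxa9 gave 0.29, 0.49 and 0.32, and Hoxa9, a driver of leukaemia when overexpressed with Meis1, averaged 2.10 ± 0.766 CPM in KO (SD, n = 3) and 1.70 ± 0.442 CPM in WT (SD, n = 4). Without KO replicate 4 Hoxa6 gave 0.21 and Hoxa9 0.004. Hoxa7 gave 0.38, and -0.24 without KO replicate 4, where it was at 8.14 CPM.

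In the Hoxd cluster Hoxd8 had 2.42, 3.18 and 3.54 CPM in KO and 1.86, 3.12, 1.37 and 1.33 CPM in WT. Its log2 difference was 0.66 ± 0.32 (SE; edgeR adjusted p = 0.256), and the edgeR adjusted p was 0.0439 without WT replicate 2 and 0.232 to 0.540 with any other library left out. Hoxd9, with 0 to 36 reads in a library, had 0.0605, 0.375 and 0.713 CPM in KO and 0, 0.879, 0.110 and 0.115 CPM in WT. Samples of both genotypes lay at both ends of its range (log2 difference 0.42 ± 0.97, edgeR adjusted p = 0.840; -0.32 without KO replicate 5). Hoxd3 gave 0.02 ± 0.41 (edgeR adjusted p = 0.982), with a log2 difference of -0.25 without WT replicate 3, its lowest sample, and between -0.17 and -0.07 without WT replicate 4, KO replicate 4 or KO replicate 5.

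The 12 Hox genes of paralogue groups 10 to 13 were close to silent. Together they had 29, 31 and 45 reads in KO livers and 13, 6, 9 and 9 reads in WT livers, or 0.877, 0.684 and 1.28 summed CPM in KO and 0.440, 0.146, 0.246 and 0.207 in WT. Each KO library was above each WT library in this sum; these groups were put together after the values were seen, so the sum is a description with no test, and only Hoxa10 of the 12 was tested. Hoxd13, which shapes the digits and genitalia, had 0.242, 0.0221 and 0.513 CPM in KO and 0, 0.0488, 0.0274 and 0.0230 CPM in WT, so KO replicates 3 and 5 carried its reads. Hoxc13, a gene of hair and nail, had 10 reads in all, with 0.0605, 0.110 and 0.0855 CPM in KO and 0 in each WT library. Hoxd10 had 6 reads in all, again in each KO library and in no WT library. Neither was tested, and of the tested genes 9.83% had every KO sample above every WT sample. Hoxa11, Hoxa13 and Hoxd11, with at most 3 reads in a library, overlapped between the genotypes. Hoxc13 and Hoxd10 had at most 5 reads in a library, and no fold is given.

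Over the 38 Hox genes the summed level was 164, 255 and 259 CPM in KO livers and 166, 230, 150 and 161 CPM in WT livers. KO replicates 4 and 5 and WT replicate 2 formed the high end, and KO replicate 3 lay with WT replicates 1, 3 and 4. The share of Hox reads from groups 6 to 9 also varied within genotype: it was 12.3%, 19.3% and 14.2% in KO and 18.2%, 18.2%, 11.4% and 11% in WT. The 95% Wilson intervals, which cover counting error only, were 18.6% to 20.0% for KO replicate 4 and 11.4% to 13.2% for KO replicate 3. Groups 4 and 5 gave 48.3% to 55.3% of Hox reads in KO and 44.7% to 53.6% in WT.

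**Figure D4:**
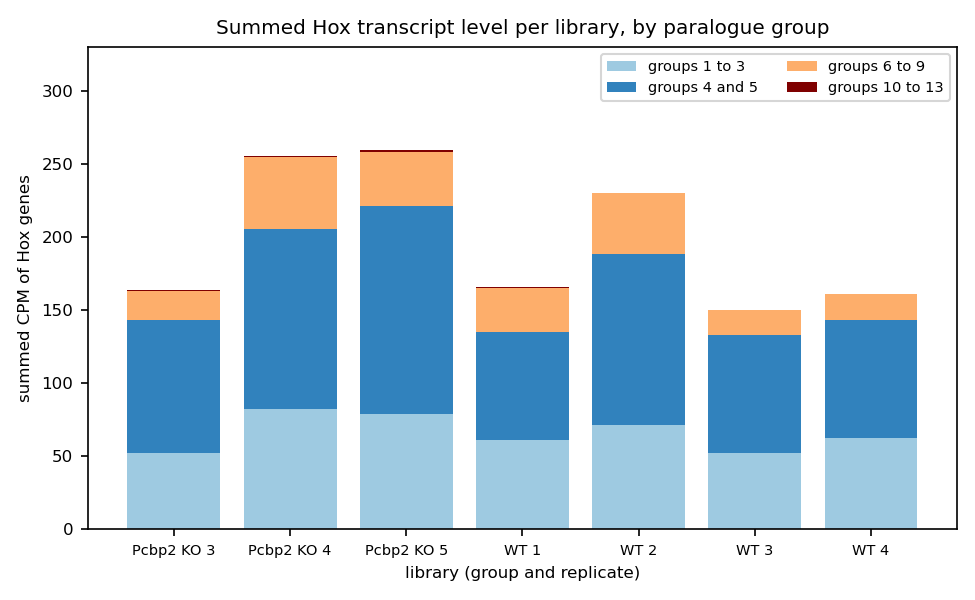
Summed CPM of the 38 Hox genes in each library (bars), split by paralogue group (colours; groups 10 to 13 are a thin line at the top). KO replicates 4 and 5 and WT replicate 2 reached 230 CPM or more, and the other 4 libraries lay between 150 and 166 CPM.

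Markers of other cells and of neighbouring tissue also varied between libraries, not all in the order of the Hox sum. Their part in these results was not tested. Over all tested genes edgeR called 1.59% higher and 3.43% lower, and 21.8% had an unadjusted p under 0.05. DESeq2 called 3.88% higher and 6.65% lower. The 7 limb and body wall markers, 6 of them above 0, summed to 56.8, 77.5 and 82.2 CPM in KO and 39.9, 67.3, 44.3 and 36.3 CPM in WT. edgeR and limma-voom called 0 of 7, 5 of 7 had an unadjusted p under 0.05, and DESeq2 called 5 (Tbx4, Tbx5, Sox9, Prrx2 and Msx1). The high libraries of the sum were KO replicates 4 and 5 and WT replicate 2, as for the Hox sum. Pitx1, a hindlimb gene of that list, had 0.181, 11.2 and 2.05 CPM in KO and 0.779, 2.81, 0.328 and 0.828 CPM in WT. The 12 mesenchyme and stellate markers, 1 of them lower (Lum) and 2 above 0, summed to 2473, 2774 and 2404 CPM in KO and 2579, 3708, 2882 and 3070 CPM in WT, highest in WT replicate 2. The 8 mesothelium markers, 1 of them above 0, summed to 278 to 370 CPM in KO and 328 to 447 CPM in WT. Their median log2 difference was -0.44, and 6 of 8 had an unadjusted p under 0.05 by edgeR. edgeR called 1 as lower (Gpm6a), limma-voom called 1, and DESeq2 called 3 (Gpm6a, Upk1b and Msln).

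Among blood and vessel lists, 1 of 10 stem and progenitor markers fell by edgeR (Flt3) and 6 of 10 were above 0, with a median of 0.23. In that list 6 had an unadjusted p under 0.05, limma-voom called 2, and DESeq2 called 3, among them Flt3 as lower and Mecom as higher (log2 0.95, edgeR adjusted p = 0.0534). The list summed to 238 to 311 CPM in KO and 231 to 261 CPM in WT. Of 8 endothelial markers 3 rose (Pecam1, Cdh5 and Emcn), with a sum of 285 to 374 CPM in KO and 218 to 288 CPM in WT. Of 7 macrophage markers tested 4 fell, and of 6 megakaryocyte markers 5 fell. For all tested genes the edgeR shares were 1.59% higher, 3.43% lower and 21.8% with an unadjusted p under 0.05. The 6 heart muscle markers, 2 of them higher (Myh6 and Nppa), summed to 57.6 to 236 CPM in KO, highest in replicate 3, and 54.1 to 75.8 CPM in WT. The 6 neural and neural crest markers summed to 12.5 to 26.4 CPM in KO and 8.32 to 49.4 CPM in WT, and the 6 skeletal muscle markers to 24.4 to 49.8 CPM in KO and 19.6 to 66.1 CPM in WT. The 7 gut and pancreas markers summed to 11.5 to 30.5 CPM in KO and 16.97 to 29.6 CPM in WT, and the 6 kidney and gonad markers to 2.71 to 9.98 CPM in KO and 2.03 to 11.5 CPM in WT. edgeR called 0 in the hepatoblast, skeletal muscle, neural, gut and kidney lists, where 1, 1, 0, 1 and 0 genes had an unadjusted p under 0.05; limma-voom also called 0, and DESeq2 called 1, Apoa1 of the hepatoblast list. The heart muscle calls were 0 of 6 by limma-voom and 2 of 6 by DESeq2. Nppa had 1, 2, 0 and 2 reads in WT and enough to be tested only through KO samples, so its call is not read as a result. Beyond this, no marker of any list was at 0 in every library.

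Other RNAs made within the clusters did not pass the test either: 10 were tested, 7 in Hoxa, 2 in Hoxb and 1 in Hoxd, and 0 were called by edgeR and by limma-voom. An unadjusted p under 0.05 was found for 3 of 10, against 21.8% of all tested genes. DESeq2 called 1, 5730596B20Rik, where it called 3.88% of all genes higher. The log2 differences ran from -0.21 to 1.45. 5730596B20Rik, which lies on the opposite strand to Hoxa3, averaged 2.15 ± 0.219 CPM in KO (SD, n = 3) and 1.18 ± 0.172 CPM in WT (SD, n = 4), with every KO sample above every WT sample (log2 0.86 ± 0.23, edgeR adjusted p = 0.0617). Hoxaas2, an antisense transcript that overlaps the end of Hoxa3, averaged 3.18 ± 0.844 CPM in KO and 1.92 ± 0.302 CPM in WT, also without overlap (log2 0.73 ± 0.24, edgeR adjusted p = 0.117). Of all tested genes 9.83% had every KO sample above every WT sample. Hoxb3os gave 0.54 ± 0.28 (SE; edgeR adjusted p = 0.287). Hotair, the antisense RNA between Hoxc12 and Hoxc11, had no read in any library. The libraries were made with a stranded kit, but with the strand setting of the counting not given in the sources used here, reads of a Hox gene and its antisense partner cannot be told apart with certainty; the overlapped part of the exons was 35% for Hoxa11, 27.3% for Hoxb2, 20.4% for Hoxa7 and 18.2% for Hoxa3.

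The Hoxc cluster shares its chromosome arm with the deleted gene. Pcbp2 ends at position 102500061 of chromosome 15, and Hoxc13, the nearest Hox gene, starts 421 kb further on. Of 14 genes annotated between them, 11 were in the files, 7 were tested and 1 was called. That one, named because it was the only call, was Map3k12, a kinase of stressed axons, whose annotated end overlaps that of Pcbp2 on the opposite strand. It averaged 44.0 ± 4.38 CPM in KO (SD, n = 3) and 19.8 ± 2.67 CPM in WT (SD, n = 4), with every KO sample above every WT sample (log2 1.15 ± 0.13, edgeR adjusted p = 0.00257). The other 6 gave log2 differences from -0.02 to 0.46 with edgeR adjusted p from 0.379 to 0.963. The genes from 18.1 to 222.1 kb past Pcbp2 therefore had no call by edgeR, and neither did the 4 tested Hoxc genes beyond them, of which DESeq2 called Hoxc5.

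**Figure D5:**
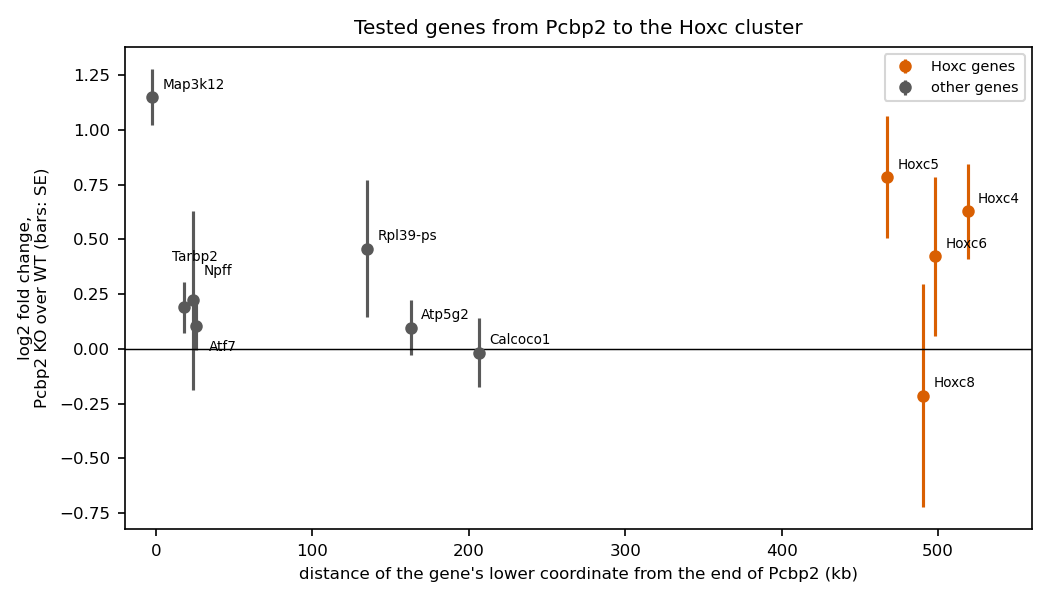
The log2 fold change (Pcbp2 KO over WT; bars are standard errors of the fit) of tested genes against the distance of their lower coordinate from the end of Pcbp2, in kb. Map3k12, at the left edge, is at 1.15, the next 6 genes lie between -0.02 and 0.46, and the Hoxc genes (orange) between -0.21 and 0.79.

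Partners and regulators of Hox genes gave no call by edgeR or limma-voom, and some by DESeq2. Beside the counts of each list below stand the shares over all tested genes. These were 21.8% with an unadjusted p under 0.05 by edgeR, and 3.88% called higher and 6.65% lower by DESeq2. Of the 9 TALE cofactors, which bind DNA together with Hox proteins, 0 of 9 passed by edgeR and 8 were above 0, with a median of 0.28; 4 had an unadjusted p under 0.05, and DESeq2 called 1. Meis2 had 102, 111 and 107 CPM in KO and 79.2, 108, 74.1 and 76.5 CPM in WT (log2 0.34 ± 0.13, edgeR adjusted p = 0.172). WT replicate 2 was the highest WT sample by far, as it was for the Hox sum, and lay within the KO range.

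Of 8 ParaHox, Cdx and Evx genes, relatives of the Hox genes of which the Cdx genes are known to activate them, 2 were tested and 0 passed by edgeR or DESeq2, with an unadjusted p under 0.05 for 1, Cdx2. Cdx2 had 0, 2 and 7 reads in KO and 18, 12, 1 and 25 reads in WT. It had enough reads to be tested only through WT samples, so its p is not read as a result and no fold is given. Its mean was 0.0813 ± 0.105 CPM in KO and 0.376 ± 0.272 CPM in WT. Pdx1, a pancreas and duodenum gene, averaged 0.555 ± 0.157 CPM in KO and 1.02 ± 0.497 CPM in WT (log2 -0.88 ± 0.46, edgeR adjusted p = 0.295). The 14 MLL and partner genes, which keep Hox genes active through histone methylation, had a median of 0.09 and 0 of 14 called by edgeR or DESeq2, with an unadjusted p under 0.05 for 2. The smallest p values among them belonged to Dpy30 (log2 -0.28 ± 0.09, edgeR adjusted p = 0.121) and Kdm6b, a demethylase of the Polycomb mark (log2 0.44 ± 0.19, edgeR adjusted p = 0.212).

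The 16 Polycomb genes, which keep Hox genes silent, had a median of 0.08 and 0 of 16 called by edgeR, with an unadjusted p under 0.05 for 1, Rnf2, which DESeq2 called. Rnf2, the ubiquitin ligase of the repressive complex, averaged 127 ± 8.82 CPM in KO and 104 ± 3.202 CPM in WT, with no overlap (log2 0.29 ± 0.09, edgeR adjusted p = 0.0815), and Bmi1, its partner, gave 0.25 ± 0.11 (edgeR adjusted p = 0.242). Of the 12 genes of retinoic acid metabolism and reception, the signal that turns on low-numbered Hox genes in the embryo, 11 were tested and 0 passed by edgeR, while 4 had an unadjusted p under 0.05 and DESeq2 called 3 (Rarg, Aldh1a1 and Cyp26b1). Cyp26b1, which degrades retinoic acid, averaged 5.36 ± 1.72 CPM in KO and 2.47 ± 0.920 CPM in WT (log2 1.12 ± 0.31, edgeR adjusted p = 0.0677). Aldh1a1, which makes it, averaged 4.25 ± 0.581 CPM in KO and 8.84 ± 3.795 CPM in WT (log2 -1.05 ± 0.30, edgeR adjusted p = 0.0740), while Aldh1a2, the main enzyme of the early embryo, averaged 96.4 CPM in both.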

How the data were processed

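For each library the authors deposited raw counts of reads in genes, as HTSeq output; per the submitters' processing notes the tools were cutadapt 1.4.2, TopHat2, HTSeq, DESeq2 and DESeq on build mm10. Their settings, and the annotation release, were not given in the sources used here. Per the labels' protocols, libraries were of the TruSeq stranded mRNA kind, from Trizol extracts. The authors' deposited table gives a baseline signal (mean normalized count), a log2 fold change, a test score and p-values for 15548 genes; it was used for names and for the values credited to it.

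Names came from that table for 23 Hox genes and from GENCODE M21 for 15, matched by gene ID without version. Rows that name no gene stayed out: reads in no annotated gene were 4.89% to 7.61% of reads, ambiguous reads 0.447% to 0.536% and reads aligned to several places 11.3% to 19.6%. Counts were fitted in R 4.3.3 with edgeR 4.0.16 (filterByExpr defaults, TMM, quasi-likelihood F test, group as the only term, all 7 libraries), with Benjamini-Hochberg adjustment over all tested genes; the step was tested on simulated data. limma-voom (limma 3.58.1), DESeq2 1.42.0, other scalings and filters, each library left out and a replicate block were alternatives. CPM per kb divides by the union of M21 exons. SDs over libraries go with CPM, and standard errors of the fit with log2 fold changes. Values in every library are given for the 2 genes of each cluster with the smallest p and the 2 with the highest CPM per kb; other values by library were chosen after they were seen. The Hox genes, the 19 lists of 163 cofactors, regulators and markers, and the tests were chosen with earlier results of these data known. Some of the genes tested are counted in totals, sums and medians but are not reported here by name.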

Additional observations from a re-analysis of the deposited data

Results flagged for a closer look

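Single WT libraries stood far from the other 3 of their group in 5 Hox values: the gap to the nearest library, set against the range of the group, passed the 95% critical value of Dixon's test, which chance passes in about 1 in 20 groups. WT replicate 2 was high for Hoxc5 (17.96 CPM), Hoxa7 (6.76 CPM), Hoxd9 (0.8786 CPM) and the summed Hoxc cluster (47.98 CPM). The summed value holds Hoxc5, so these are not separate observations. WT replicate 1 was high for Hoxa10 (0.3047 CPM). In all, 30 WT values were examined; groups of 3, such as the KO libraries, were not.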

How the results depend on the processing

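Hox genes called as lower numbered 0 under every alternative run, and Hox genes called as higher numbered 0 except 1 with DESeq2, 7 with the replicate block and 0 to 3 when single libraries were left out. Over all genes, calls numbered 651 higher with total-count scaling, 617 higher and 1057 lower with DESeq2, 852 higher and 1204 lower with the replicate block, and 24 to 418 higher and 116 to 753 lower with single libraries left out. In the lists, higher calls numbered 9 with total-count scaling, 16 with DESeq2, 13 when low counts were not filtered and 26 with the replicate block; with single libraries left out there were 3 to 17 higher and 7 to 22 lower. Signs turned for Hoxb9 with limma-voom (log2 0.67), and with the replicate block for Hoxb2 (-0.007), Hoxb9 (1.91) and Hoxc8 (0.13). With single libraries left out, signs turned within the ranges -0.24 to 0.83 (Hoxa7), -0.31 to 0.41 (Hoxb1), -0.10 to 0.30 (Hoxb2), -0.09 to 0.98 (Hoxb8), -0.57 to 0.73 (Hoxb9), -0.69 to 0.41 (Hoxc8), -0.25 to 0.29 (Hoxd3) and -0.32 to 0.90 (Hoxd9). The cause of these changes was not tested. Only 2 replicate numbers, 3 and 4, occur in both genotypes and the labels do not say what they share, so a pairing is not known. Same-numbered deviations from the mean of each genotype correlated at 0.37 and 0.34, against -0.36 and -0.15 crossed. Such deviations balance out within a genotype by construction, so these values are not independent of one another and cannot decide on a pairing. The difference in the block fit rests on replicates 3 and 4 alone, because the other numbers occur in 1 genotype only. With a term for every replicate number and for genotype, the 7 libraries left very little from which to estimate the spread. Calls of the block fit therefore do not compare with those of the main fit. The 7 Hox genes called with the replicate block were Hoxb6, Hoxb8, Hoxb9, Hoxc4, Hoxc5, Hoxc6 and Hoxd8, where 5.25% of all genes were called higher, and the Hox median was then 0.615. The 13 Hox genes with too few reads were not tested.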
